A study of Mus musculus with 18 samples.

Results

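The nucleosome remodelling and deacetylase complex, NuRD, was followed through 10 of its subunit genes: Chd3, Chd4, Hdac1, Hdac2, Mta1, Mta2, Mta3, Mbd2, Mbd3 and Gatad2a. They were taken by symbol, not by a measured value, but with earlier results of these data known. All 10 were found among the 35734 genes of the authors' deposited fibroblast table, and all 10 had a gene window among the 49943 windows set over the chromatin data. The series holds 18 samples in 10 groups and asks whether factors that set temporal identity in neural progenitors can turn other cells into neurons. The measurements used here come from mouse embryonic fibroblasts and from the retina.

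The fibroblasts came from the R26-M2rtTA line on a C57BL/6 background, in which a doxycycline-responsive activator switches on lentiviral transgenes. Both fibroblast groups received Brn2 (gene symbol Pou3f2) and Myt1l, and 1 of them also received Ikzf1 and Ikzf4. Each group has 3 RNA libraries taken at 48 h, and the 6 libraries hold between 34966344 and 44270426 estimated reads. The labels do not say whether the libraries came from separate cultures, so the p-values measure the spread between these libraries, which may be technical. The retinal data are the chromatin side of a 10x Multiome assay, which records open chromatin fragments per nucleus, with 1 library per group. The control library is labelled as Muller glia of the GLAST-CRE ERT2 ; RosaYFP line on C57BL/6, with mCherry as its condition; this Cre is driven by a glial promoter and is active after tamoxifen. The Ikzf1/4 library carries its title in place of the line, strain, cell type and condition, so those are not stated for it, and both libraries are labelled with tamoxifen at 14 days. The labels give neither the age of the animals nor whether animals were pooled.

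NuRD joins 2 enzymatic activities. An ATPase of the CHD family slides nucleosomes, and a histone deacetylase removes acetyl groups from histone tails, held together by MTA scaffold proteins and linked through MBD and GATAD2 proteins. Ikaros, the protein of Ikzf1, binds the CHD4 ATPase and brings NuRD to DNA in lymphocytes, and in the retina Ikzf1 is known as a factor of early progenitors that favours the early-born cell types.

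The labels of Ikzf1 and Ikzf4 held in the fibroblast RNA, but the groups also differed in Myt1l, which both received. The authors' deposited table lists Ikzf1 at a log2 fold change of 7.76 (SE 0.17) and Ikzf4 at 8.54 (SE 0.15) with the Ikaros factors added, Pou3f2 at -0.05 (SE 0.08) with a DESeq2 adjusted p of 0.689, and Myt1l at 0.50 (SE 0.17) with an adjusted p of 0.0157. Of 10 fibroblast markers there, 7 were lower and 0 were higher, among them the matrix genes Dcn at -1.77 and Col3a1 at -1.29. Of 7 tested markers of other cell types in the authors' deposited table only Epcam was called, higher at 0.64 (SE 0.22) on a mean of 40.969 normalised counts. Among the rest, Ptprc and the macrophage gene Adgre1 were present there at means of 1167.5 and 1620.3 without passing the test. The part that these shifts and the higher Myt1l play in the subunit values was not tested. In bulk RNA, fewer cells of a type and less RNA per cell cannot be told apart. In the chromatin data, the control library had 52119123 unique fragments and the Ikzf1/4 library 29358834.

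In fibroblasts 4 of the 10 NuRD members rose when Ikzf1 and Ikzf4 were added to Brn2 and Myt1l, and 0 of the 10 fell. They were the ATPase genes Chd3 and Chd4, the scaffold gene Mta3 and the linker gene Gatad2a, with fold changes from 1.11 to 1.29 in the authors' deposited table. Across the 16757 genes with an adjusted p, 30.6% were called at a DESeq2 adjusted p under 0.05 in that table, 15.3% higher and 15.4% lower. None of the 4 reached an absolute log2 fold change of 0.5, a size that 10.2% of all genes passed together with the adjusted p there, by the authors' deposited table. The remaining 6 members, among them both deacetylases, did not pass the test. Each value below is the log2 fold change of the Ikaros group over the Brn2 and Myt1l group, positive where the Ikaros group was higher. The table gives 1 mean per gene over the 6 libraries and no value for each library, so overlap between the groups could not be read. Those means are not per length, so they rank no gene above another.

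Chd3 and Chd4 encode the ATPases, which occupy the same place in the complex and are largely alternatives to each other. Chd3 (ENSMUSG00000018474), at a mean of 24387 normalised counts, rose by 0.29 (SE 0.05), a fold of 1.23 with an interval of 1.14 to 1.31 and a DESeq2 adjusted p of 1.5e-07 in the authors' deposited table. Chd4 (ENSMUSG00000063870), at a mean of 15862, rose by 0.27 (SE 0.05), a fold of 1.21 (1.13 to 1.29), with an adjusted p of 9.22e-07 in the authors' deposited table. Taking the 2 standard errors as independent, the difference between Chd3 and Chd4 was 0.02 on the log2 scale with an interval of -0.12 to 0.16. The pair therefore moved by amounts that differ by less than their error. The third ATPase gene, Chd5, is a neuronal member of the family and stood outside the 10. The authors' deposited table gives Chd5 a mean of 429.53 normalised counts and a log2 fold change of 1.49 (SE 0.12), a 2.8-fold increase with a DESeq2 adjusted p of 8.01e-33. Its change exceeded that of Chd4 by 1.21 (0.96 to 1.47).

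Hdac1 and Hdac2 encode the deacetylases, which also serve in the SIN3 and CoREST complexes. Hdac1 (ENSMUSG00000028800) had a mean of 4927.3 normalised counts and a log2 fold change of 0.10 (SE 0.06) with a DESeq2 adjusted p of 0.233 in the authors' deposited table. For Hdac2 (ENSMUSG00000019777) the authors' deposited table gives a mean of 6649 and a log2 fold change of -0.02 (SE 0.05) with an adjusted p of 0.756. The intervals reach from -0.02 to 0.21 for Hdac1 and from -0.11 to 0.07 for Hdac2. Changes as large as the estimates for the called ATPase genes, 0.27 and 0.29, lie outside both intervals. The ATPase intervals, 0.17 to 0.37 for Chd4 and 0.19 to 0.39 for Chd3, overlap that of Hdac1, however. The called Gatad2a, at 0.15, lies inside the Hdac1 interval. No contrast of the deacetylases with the called genes was computed.

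The MTA proteins dimerise and hold the deacetylases, and their 3 genes did not move alike. Mta3 (ENSMUSG00000055817), at a mean of 1809.8 normalised counts, rose by 0.37 (SE 0.08), a fold of 1.29 (1.16 to 1.43) with a DESeq2 adjusted p of 1.83e-05 in the authors' deposited table. Mta1 (ENSMUSG00000021144), at a mean of 4334.8, was listed at -0.10 (SE 0.05) with an adjusted p of 0.106 and a raw p of 0.0385 in the authors' deposited table. Mta2 (ENSMUSG00000071646), at 5008.1, was listed at 0.02 (SE 0.05) with an adjusted p of 0.796 in the authors' deposited table. The change of Mta3 exceeded that of Mta1 by 0.47 (0.29 to 0.65) and that of Mta2 by 0.35 (0.17 to 0.53), again taking the errors as independent. Both intervals leave out 0, whereas the interval for Mta2 against Mta1 ran from -0.01 to 0.26.

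MBD2 binds methylated DNA and MBD3 does not, and a given complex holds one or the other. The authors' deposited table lists Mbd2 (ENSMUSG00000024513), at a mean of 2823.8 normalised counts, at 0.04 (SE 0.06) with a DESeq2 adjusted p of 0.693. Mbd3 (ENSMUSG00000035478), at 3450.2, was listed there at -0.10 (SE 0.06) with an adjusted p of 0.218 in the authors' deposited table. Their difference was 0.14 (-0.03 to 0.30), so neither the genes nor their contrast passed. GATAD2A links the MBD protein to the ATPase. Gatad2a (ENSMUSG00000036180), at 3937.8, rose by 0.15 (SE 0.06), a fold of 1.11 (1.03 to 1.2) with an adjusted p of 0.0346 in the authors' deposited table. It is the call nearest the threshold, and adjusting over every gene with a raw p in that table put it at 0.051. Its paralogue Gatad2b, outside the 10, rose by 0.39 (SE 0.05) with an adjusted p of 1.04e-12 in the authors' deposited table, 0.24 (0.08 to 0.39) more than Gatad2a.

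**Figure D1:**
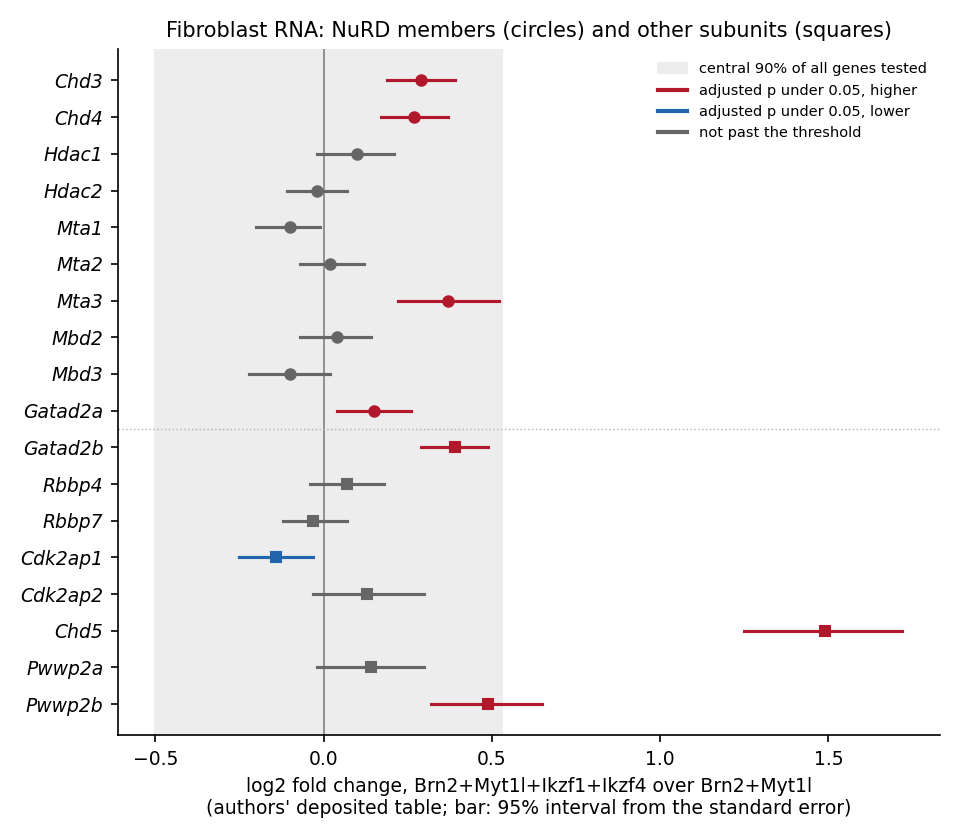
Log2 fold change of each NuRD subunit gene in fibroblasts given Ikzf1 and Ikzf4 beside Brn2 and Myt1l over fibroblasts given Brn2 and Myt1l alone, from the authors' deposited table; points are estimates and bars are 95% intervals from the standard errors. Among the 10 members Mta3, Chd3, Chd4 and Gatad2a lie above 0 past the adjusted threshold, and Chd5 among the other subunits lies farthest right at 1.49.

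The other 8 subunit genes held 3 higher and 1 lower in the authors' deposited table. Besides Chd5 and Gatad2b, the third higher gene was Pwwp2b, a reader that binds a NuRD form without the CHD ATPase, at 0.49 (SE 0.08), and the lower gene was Cdk2ap1, a small subunit, at -0.14 (SE 0.06) with a DESeq2 adjusted p of 0.0356 in the authors' deposited table, which was 0.0525 when adjusted over every gene with a raw p. The histone-binding genes Rbbp4, at 0.07 (SE 0.06), and Rbbp7, at -0.03 (SE 0.05), did not pass there. The median log2 fold change was 0.07 over the 10 members and 0.13 over these 8, beside 0.00 over all genes tested in the authors' deposited table. Among the 7152 genes with a mean of at least 1000, to which all 10 members belong, 19.7% were called higher and 20.8% lower, and the middle 90% of their changes ran from -0.40 to 0.37. Of the 4 called members Chd3, Chd4 and Gatad2a lie inside that range and Mta3 lies at its upper edge.

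**Figure D2:**
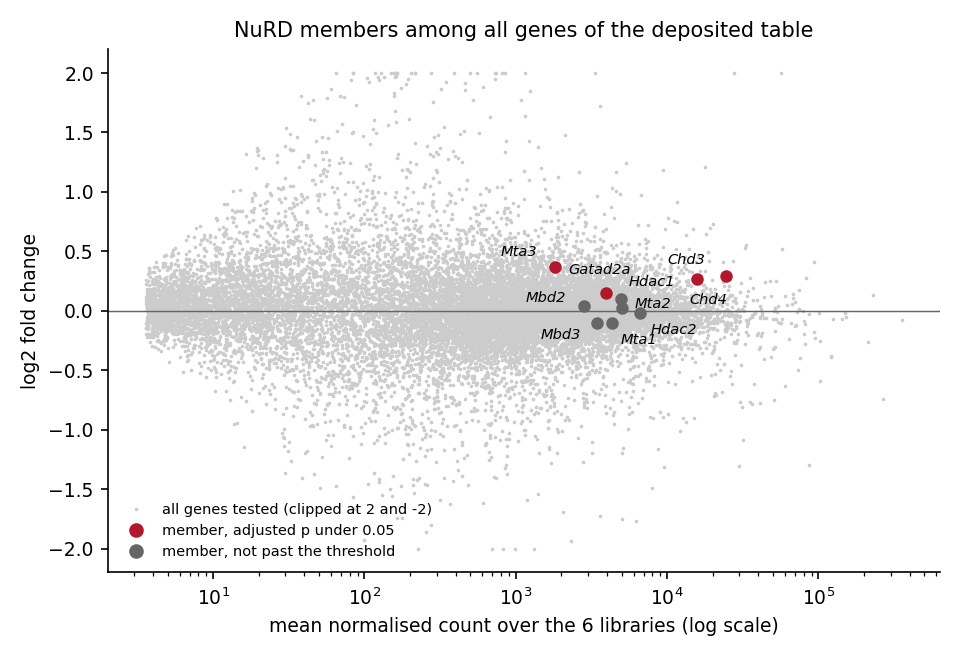
Mean normalised count (log axis) against log2 fold change for the genes with an adjusted p in the authors' deposited table, with the 10 NuRD members drawn over them. The 10 members sit at means of 1809.8 and above and within -0.10 to 0.37 on the vertical axis. Other subunits such as Chd5 are not marked.

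Genes that work beside NuRD were called in both directions, as were all genes tested, 15.3% higher and 15.4% lower, or 19.7% and 20.8% at a mean of at least 1000. Of 20 transcription factor genes that recruit NuRD, 18 were tested in the authors' deposited table, with 6 higher and 4 lower, a median of 0.10. Bcl6, a repressor of germinal centre B cells, rose by 0.78 (SE 0.10) and Bcl11b, a T cell factor, fell by 0.58 (SE 0.13) in the authors' deposited table. Sall3 at 1.35 (SE 0.22), on a mean of only 19.849, and the zinc finger genes Zfp827 and Zfp532, both at 0.34 (SE 0.07), were also higher there, and Zfp219 at -0.47 (SE 0.08), Zfpm1 at -0.27 (SE 0.08) and Zfpm2 at -0.16 (SE 0.06) were lower in the authors' deposited table. Of 32 tested genes listed for the other class I deacetylase complexes 10 were higher and 3 lower in that table. The 32 include Tada2b, which is not a subunit of such a complex and was not called. Sin3a, the scaffold of the SIN3 complex, rose by 0.28 (SE 0.06), and Hmg20b and Phf21a of the CoREST complex fell by 0.49 (SE 0.07) and 0.37 (SE 0.08) in the authors' deposited table. Mier3 at 0.33 (SE 0.07) and Brms1l at 0.37 (SE 0.11) were also higher, and the demethylase gene Kdm1a at -0.12 (SE 0.05) was lower with a DESeq2 adjusted p of 0.0494, in the authors' deposited table. Adjusted over every gene with a raw p, Kdm1a was at 0.0728. Of 25 tested genes of the BAF remodelling complexes, which open chromatin, 7 were higher and 5 lower in that table. The BAF genes Arid1b at 0.47 (SE 0.06), Smarca2 at 0.33 (SE 0.05), Arid2 at 0.34 (SE 0.07) and Arid1a at 0.23 (SE 0.05) were higher, and Smarcd3 at -0.56 (SE 0.10), Brd9 at -0.32 (SE 0.07), Dpf1 at -0.45 (SE 0.11) and the ATPase gene Smarca4 at -0.13 (SE 0.04) were lower, in the authors' deposited table. Among 6 other CHD genes Chd2 at 0.41 (SE 0.05) and Chd1 at 0.20 (SE 0.07) were higher and Chd9 at -0.16 (SE 0.05) was lower, and of 11 CtBP and PRC2 genes Phf1 at 0.37 (SE 0.08) and Eed at 0.18 (SE 0.07), 2 in all, were higher and 0 lower in the authors' deposited table.

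In the retina the NuRD gene windows differed little between the libraries when counted whole and over all barcodes. A window is the gene body with 2 kb on both sides in mm10, its level is the number of unique fragments overlapping it as CPM, counts per 1000000 fragments of the library over all barcodes, and the ratio is Ikzf1/4 over control. The 10 ratios ran from 0.955 to 1.19 and 0 of 10 passed the fold used here, more than 25% higher or 20% lower. Of the 42928 windows with at least 100 fragments, 12.1% were higher and 13.2% lower by that fold, and the median ratio was 1.03. Of the 16806 windows with at least 1000 fragments, as all 10 members have, 13.5% were higher and 3.45% lower, with a median of 1.09. Only 26.2% of the control and 30.1% of the Ikzf1/4 fragments lie in the nuclei called below, and in those nuclei alone Chd3, at 1.27, and Mta1, at 1.28, passed the fold, beside 16.2% of all windows upwards and 16.0% downwards. Over 500 bp around both gene ends 6 of 10 passed the fold upwards. Of all genes counted that way 36.5% were higher and 7.19% lower, with a median of 1.17. With 1 library per group there is no test of the conditions, and the 95% intervals cover counting error only.

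The window of Chd3 (chromosome 11, gene at 69343273 to 69369499) went from 26.1 to 29.8 CPM, a ratio of 1.14 (1.05 to 1.24). That of Chd4 (chromosome 6, 125095980 to 125130591), which overlaps Nop2, went from 36.6 to 43.2, a ratio of 1.18 (1.1 to 1.27). The ATPase windows were thus alike in their ratio in this count. In nuclei alone Chd3 was at 1.27 (1.13 to 1.43) and Chd4 at 1.15 (1.04 to 1.27). With equal weight for each cell class they were at 1.32 and 1.11. Hdac1 (chromosome 4, 129516104 to 129542646), whose window overlaps Marcksl1, gave 29.0 and 32.5, a ratio of 1.12 (1.03 to 1.22). Hdac2 (chromosome 10, 36974297 to 37001889) gave 25.1 and 26.9, with a ratio of 1.07 (0.981 to 1.17). The intervals of the deacetylases overlap over most of their length.

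Mta1 (chromosome 12, 113098248 to 113137206) gave 37.7 and 40.2 CPM, a ratio of 1.07 (0.992 to 1.15). Mta2 (chromosome 19, 8941920 to 8952300), whose window overlaps Eml3 and Tut1, gave 25.2 and 29.0, a ratio of 1.15 (1.05 to 1.254). Mta3 (chromosome 17, 83706163 to 83823715) has the longest gene and gave 57.0 and 54.4, a ratio of 0.955 (0.899 to 1.02). Mta3 was the only window of the 10 with a ratio under 1 in this count, but its ratio was 1.12 over 500 bp around the gene ends and 1.03 with equal weight for each cell class. Mbd2 (chromosome 18, 70568225 to 70629134) gave 44.2 and 52.4, a ratio of 1.19 (1.11 to 1.27). Mbd3 (chromosome 10, 80392539 to 80399531), the shortest gene, gave 50.5 and 56.2, a ratio of 1.11 (1.05 to 1.18). Gatad2a (chromosome 8, 69907069 to 69996402) gave 96.3 and 112, a ratio of 1.17 (1.12 to 1.22).

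The windows that check the labels bear on how far these ratios can be read. The Ikzf1 window had a ratio of 0.674 (0.621 to 0.731) and the Ikzf4 window stood at 1.45 (1.33 to 1.58), and fragments over a gene do not measure a transgene. The Ikzf1 ratio was 0.46 in nuclei alone, 0.336 in nuclei of at least 10000 fragments and 1.01 when each cell class had equal weight, or 0.471 when the microglia-like class was left out of that mean. That of Ikzf4 was 1.48, 1.55, 1.47 and 1.47. The share of nuclei of each class differed between the libraries, as given with the classes. With equal weight for each class the ratio was 0.885 for Hdac2, 0.984 for Mta2, 1.03 for Mta3 and 1.32 for Chd3. The microglia-like class enters that mean with 18 Ikzf1/4 nuclei, in which Hdac2 had 5 fragments and Mta2 14. Without it, an alternative chosen after seeing the data, the ratios were 1.02 for Hdac2, 1.03 for Mta2, 0.955 for Mta3, 1.48 for Chd3 and 1.32 for Mta1, so the directions of Hdac2, Mta2 and Mta3 under equal weight rest on that class.

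**Figure D3:**
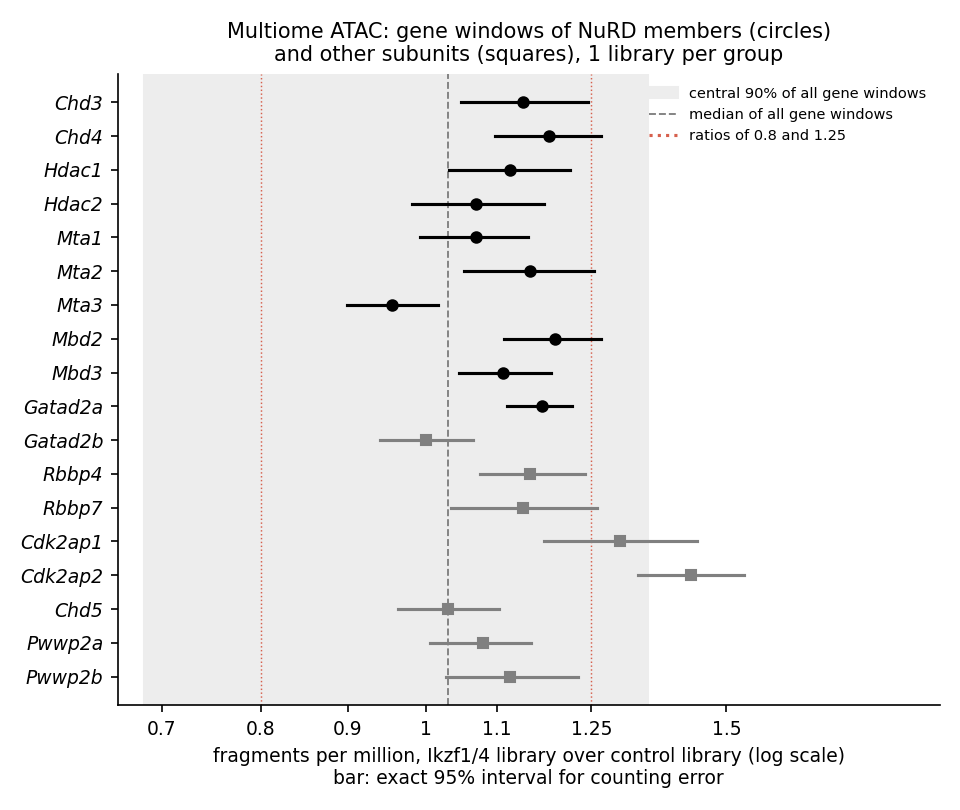
Ratio of CPM, Ikzf1/4 library over control library, for each NuRD subunit gene window in the retina (log axis), with exact 95% counting intervals and dotted lines at the fold limits. The 10 members lie between 0.955 (Mta3) and 1.19 (Mbd2), and Cdk2ap1 at 1.30 and Cdk2ap2 at 1.43 lie outside the limits.

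Per kilobase the windows differed far more between genes than between libraries. In the control library Mbd3 had 4.59 CPM per kb (4.42 to 4.77) and Mta2 1.76 (1.66 to 1.85), and both stood apart from every other member. Gatad2a followed at 1.03 (1.0 to 1.06). Chd4 and Hdac1 shared 0.949, and Mta1 at 0.878, Chd3 at 0.863 and Hdac2 at 0.795 came next. From Chd4 down to Hdac2 the intervals of neighbours in this order overlapped. Mbd2 at 0.680 and Mta3 at 0.469 (0.452 to 0.486) were lowest. The median of all windows was 0.474, so 9 of the 10 members were denser than it and Mta3 was not. Mbd3 and Mta2 have the shortest windows of the 10, at 11 kb and 14.4 kb, and Mta3 the longest, at 122 kb. The part of window length in this order was not tested. With Ikzf1/4 the order was the same except that Chd3, at 0.986, and Mta1, at 0.936, changed places, with overlapping intervals.

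Open chromatin at the gene starts was examined where RefSeq promoters of GRCm38.p6, the mm10 build, were given. They were given for 6 of the 10 members, with 8 starts in all. Chd3, Hdac1, Mta3 and Mbd2 had no entry. The starts at which the results turn are printed as the 250 bases upstream, 5′ to 3′ on the gene's strand. They are the first Chd4 start, with the highest ratio between libraries, the Mbd3 start, with the highest level, and the 2 Gatad2a starts, which differ in ratio. The second Chd4 start, with a ratio of 1.99, is not printed. It overlaps the first and, unlike it, holds the letters marked below. The coordinates are chr6:125095731-125095980 on the plus strand for Chd4, chr10:80399532-80399781 on the minus strand for Mbd3, and chr8:69996385-69996634 and chr8:69974384-69974633 on the minus strand for the first and the second Gatad2a start. Capitals mark GGGAA or its reverse complement TTCCC, the core letters that Ikaros zinc fingers bind.
Chd4, first start: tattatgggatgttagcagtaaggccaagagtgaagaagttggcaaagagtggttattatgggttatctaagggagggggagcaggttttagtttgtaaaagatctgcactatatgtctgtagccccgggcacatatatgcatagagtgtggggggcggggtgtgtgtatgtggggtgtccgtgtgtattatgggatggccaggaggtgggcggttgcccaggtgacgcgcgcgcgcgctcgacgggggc
Mbd3: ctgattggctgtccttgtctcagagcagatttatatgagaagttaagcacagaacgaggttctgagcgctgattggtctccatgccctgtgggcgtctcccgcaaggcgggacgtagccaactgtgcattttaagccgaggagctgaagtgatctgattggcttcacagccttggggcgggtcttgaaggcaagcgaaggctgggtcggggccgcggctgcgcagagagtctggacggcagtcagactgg
Gatad2a, first start: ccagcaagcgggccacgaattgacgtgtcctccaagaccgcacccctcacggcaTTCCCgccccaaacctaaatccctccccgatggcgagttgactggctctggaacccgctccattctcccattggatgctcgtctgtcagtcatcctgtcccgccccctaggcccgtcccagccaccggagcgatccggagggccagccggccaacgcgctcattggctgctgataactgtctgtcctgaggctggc
Gatad2a, second start: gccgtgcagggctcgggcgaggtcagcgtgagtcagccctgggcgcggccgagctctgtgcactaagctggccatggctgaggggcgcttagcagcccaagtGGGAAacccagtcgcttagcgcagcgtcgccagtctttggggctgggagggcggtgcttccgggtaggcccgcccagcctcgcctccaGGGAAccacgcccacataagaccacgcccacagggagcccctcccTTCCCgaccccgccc

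Chd4 had the highest ratio of the 8 starts. Over 300 bases, from 250 before the start to 50 after it, the first Chd4 start went from 1.84 to 3.92 CPM, a ratio of 2.13 (1.61 to 2.82), and the second, which overlaps it, from 3.53 to 7.02, a ratio of 1.99 (1.62 to 2.44). In the control both levels were low beside the other members' starts, with only Mta1 between them. Over 500 bp on both sides the Chd4 ratios were lower, at 1.7 (1.43 to 2.02) for the first start and 1.68 (1.42 to 1.99) for the second. The second Gatad2a start went from 11.8 to 16.8, a ratio of 1.42 (1.26 to 1.60), and the first from 23.5 to 27.5, a ratio of 1.17 (1.07 to 1.28). Within 1 gene, then, the starts had ratios whose intervals overlap only narrowly. Mbd3 had the highest level, 26.2 in the control against 29.2 with Ikzf1/4, above 99.9% of all starts, with a ratio of 1.11 (1.02 to 1.22). Mta2 went from 9.0 to 11.8, a ratio of 1.31 (1.14 to 1.51), and Hdac2 from 8.75 to 10.5, a ratio of 1.2 (1.03 to 1.38). Mta1 went from 2.24 to 3.51, a ratio of 1.56 (1.19 to 2.05).

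At 5 of the 8 starts the ratio was past the fold upwards and at 0 of 8 downwards, but of the 11460 starts with enough fragments 47.7% were past it upwards and 2.57% downwards, and the median ratio of all starts was 1.24. The intervals of the overlapping Chd4 starts and of the second Gatad2a start lay above that median and that of Mbd3 lay below it; the share of all starts with such intervals was not counted. The cells of the Ikzf1/4 library had a median enrichment at gene ends of 13 against 12 in the control. Its part in the member ratios was not tested. For the 4 members with no start entry the gene ends were counted without a strand, within 500 bp. The upper end of Hdac1 had a ratio of 1.32 (1.17 to 1.48), the lower end of Mbd2 1.38 (1.24 to 1.53), the lower end of Mta3 1.24 (0.929 to 1.66) and the upper end of Chd3, at a low level of 1.09 in the control, 1.84 (1.26 to 2.69). Their opposite ends held under 1 CPM in both libraries, with ratios of 1.07 (0.411 to 2.60) for Hdac1, 1.49 (0.794 to 2.78) for Mbd2, 0.779 (0.421 to 1.39) for Mta3 and 1.71 (0.946 to 3.08) for Chd3.

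The profiles around the starts showed where the fragments lay. In the control library the highest 50-bp bin, counted in fragment ends per 1000000 fragments, was 50 to 100 bases upstream for Mbd3, at 10.3, and for the first Gatad2a start, at 10.5. It lay just upstream of the start for Hdac2, at 3.72, and just downstream for Mta2, at 4.6. At the first Chd4 start the highest bin lay 150 to 200 bases downstream, at 1.15, close to its second start.

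**Figure D4:**
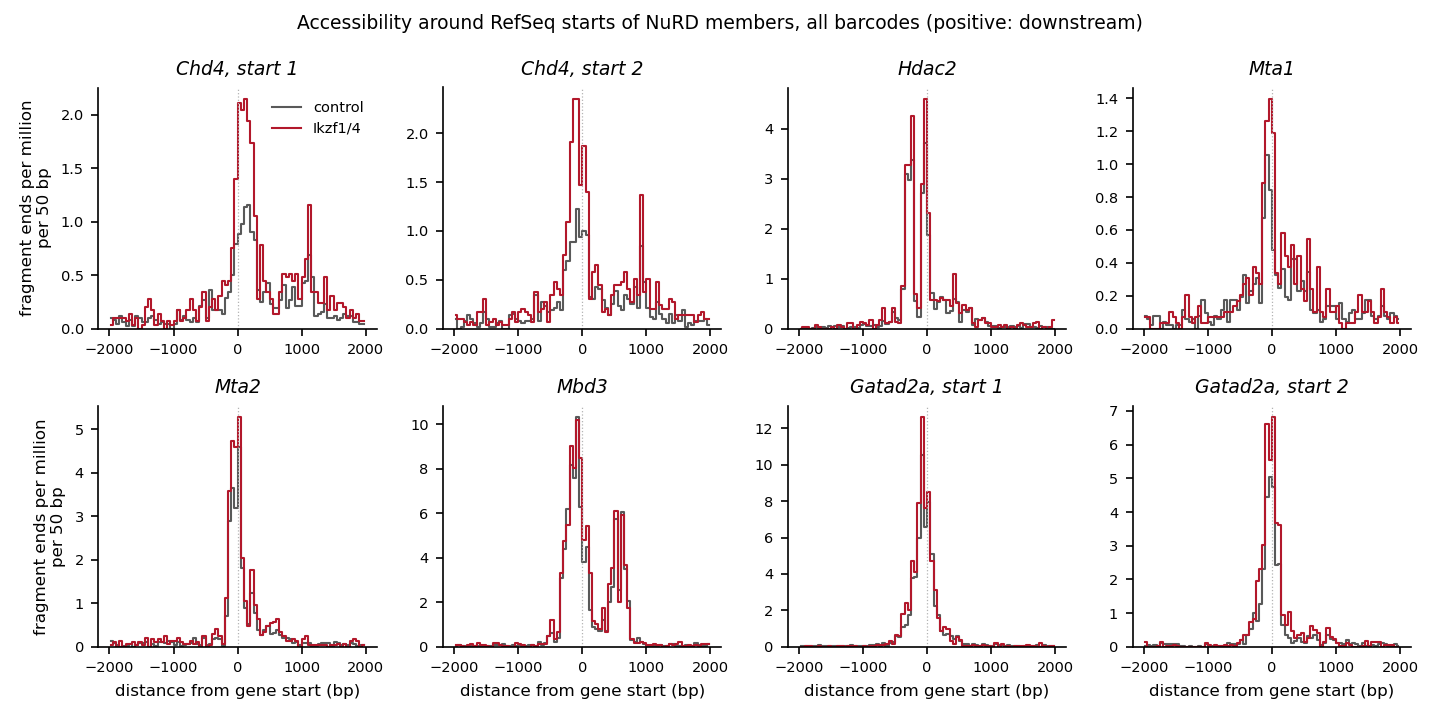
Fragment ends per 1000000 fragments in 50-bp bins against distance from the start in bases, for the starts of the members in the control and Ikzf1/4 libraries. The highest control bins reach 10.5 at the first Gatad2a start and 10.3 at Mbd3, against 1.15 at the first Chd4 start.

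GGGAA or TTCCC occurred at 3 of the 8 starts, in the 300 bases: 2 times at the second Chd4 start, 1 time at the first Gatad2a start and 3 times at the second. Of 32851 promoters of the same length 62.7% hold it. TGGGAA or TTCCCA, which contains the shorter motif, occurred only at the second Gatad2a start, and 25.6% of all promoters hold it. Hdac2, Mta1, Mta2, Mbd3 and the first Chd4 start have neither in this window. A match describes letters and not a bound site. The upstream bases of all 8 starts were richer in G and C than the median promoter, from 54% at the first Chd4 start to 80.8% at Mta1 against 52.4%.

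Fragments over the NuRD genes were also counted by retinal cell class within each library. Past the fold upwards in both libraries, against a glial reference described here, were 4 of 9 members in rod-like, 3 of 10 in cone-like, 1 of 10 in bipolar-like and 2 of 6 in microglia-like cells, beside 49.6%, 43.1%, 25.9% and 21.0% of all windows. The first 3 shares are near or below those of all windows, so the values that follow describe single genes. Nuclei with at least 3000 fragments, 1879 of the control and 683 of the Ikzf1/4 library, were clustered with the member windows left out and named by marker genes. Clusters 0, 6 and 7, with raised Muller glia markers, were 543 (28.9%) of the control and 132 (19.3%) of the Ikzf1/4 library, rod-like cells 94 (5%) and 136 (19.9%), cone-like cells 258 and 141, bipolar-like cells 199 and 130, and a microglia-like cluster 101 and 18. The microglia-like cluster was named by a list for microglia or other cells, with Pecam1, Pdgfrb and Gfap among its 14 genes. Of the 14, 8 were raised in that cluster and 0 stood among its top 10 genes. Unnamed clusters held 684 (36.4%) and 126 (18.4%), and 3 cell barcodes occurred in both libraries. The label of the control, Muller glia, therefore covers a mixture. Different clusters supply most classes in each library. In clusters 0, 6 and 7, 11 or 12 of the 12 glial markers were raised, but 0 stood among the top 10 genes. Clusters 6 and 7 each had 1 marker from the list of the microglia-like class there, Gfap in cluster 6 and Kdr in cluster 7. Cluster 6, led by Dio3, Sp5 and Gfap, supplies 125 of the 132 Ikzf1/4 nuclei, and cluster 0 supplies 377 of the 543 control nuclei. Cone-like nuclei come from cluster 2 in the control (236, against 3) and from cluster 5 in the Ikzf1/4 library (138, against 22), and bipolar-like nuclei from clusters 9 and 12 in the control and cluster 10 in the Ikzf1/4 library (113, against 1). Class levels were therefore not set against each other between libraries, except inside the equal-weight ratios above, which join different clusters under 1 name and carry that limit. Each class was set against clusters 0, 6 and 7 of its own library as 1 pool, called the glial reference here for their markers and not by their top genes, and, as an alternative chosen after seeing the data, against all other nuclei of that library.

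Rod-like cells had more fragments over Hdac1, Hdac2, Mta2 and Gatad2a and fewer over Chd3, past the fold in both libraries, among 9 members with enough fragments. Over all windows, 49.6% were past the fold upwards and 14.5% downwards in both libraries in rod-like cells. Mta2 reached 89.3 CPM in rod-like cells and 46.7 in the glial reference of the control, 1.91 times as much (1.37 to 2.63), and 90.8 and 57.2 in those of the Ikzf1/4 library, 1.59 times as much (1.2 to 2.11). Hdac1 had ratios of 1.59 (1.13 to 2.19) and 1.53 (1.17 to 2.00), and Hdac2 1.53 (1.03 to 2.22) and 1.65 (1.16 to 2.36), in control and Ikzf1/4 cells. Gatad2a had a ratio of 1.39 in each. Scaled to fragments in gene windows, 3 members and not 4 were past the fold upwards in rod-like cells. The other scaffold genes did not follow Mta2: Mta1 had 0.845 and 1.02, and Mta3 had 0.622 and 0.504 on fewer fragments than the minimum. Against all other nuclei Hdac1, Mta2, Mbd3 and Gatad2a were past the fold upwards in both libraries, Hdac2 and Chd3 were not past it in both, and Mta3 was past it downwards at 0.532 (0.289 to 0.899) and 0.453 (0.301 to 0.658). The shares of all windows were counted neither under gene-window scaling nor against all other nuclei.

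Chd3 had lower levels in the 3 neuronal classes than in the glial reference, which is the same denominator for all 3. In the control it stood at 56.8 CPM (49.3 to 65.2) in the glial reference, 42.0 in rod-like, 32.1 in cone-like and 38.3 in bipolar-like cells. In the Ikzf1/4 library the values were 81.3 (67.3 to 97.4), 47.8, 58.9 and 62.6. The ratios to the glial reference were 0.740 (0.463 to 1.13) and 0.588 (0.431 to 0.797) in rod-like cells, 0.564 (0.425 to 0.742) and 0.725 (0.554 to 0.946) in cone-like cells, and 0.674 (0.492 to 0.910) and 0.769 (0.582 to 1.02) in bipolar-like cells. In nuclei with at least 5000 fragments Chd3 was not past the fold in both libraries in rod-like cells. The rod interval of the control and the bipolar interval of the Ikzf1/4 library include 1. Over all windows, 12.9% were past the fold downwards in both libraries in cone-like and 14.6% in bipolar-like cells. Against all other nuclei Chd3 was not past the fold in both libraries in any class: the ratios were 0.928 and 0.805 in rod-like, 0.672 and 1.03 in cone-like and 0.833 and 1.11 in bipolar-like cells. Chd4, its paralogue, was not past the fold in both libraries in any of these classes.

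In cone-like cells Hdac2, Mta2 and Mbd2 were past the fold upwards in both libraries, beside 43.1% of all windows. Mta2 had ratios of 1.72 and 1.53 there, and Mbd2 1.30 and 1.32. Scaled to fragments in gene windows, 1 member and not 3 was past the fold upwards in cone-like cells, and against all other nuclei 2 were, Mta2 and Mbd2. The percentages of all windows given here hold for the glial reference without that scaling and were not counted for these alternatives. In bipolar-like cells Mta1 alone among the 10 was so in both, at 1.29 (0.981 to 1.68) and 1.55 (1.17 to 2.08), beside 25.9% of all windows, but against all other nuclei 0 members were, and Mta3 was past it downwards at 0.655 (0.472 to 0.888) and 0.766 (0.559 to 1.03). In microglia-like cells Chd4 and Gatad2a were so and 0 members were past it downwards, among 6 with enough fragments and beside 21.0% of all windows upwards and 24.7% downwards. Chd4 had ratios of 1.81 (1.45 to 2.27) and 1.36 (0.840 to 2.11), the second resting on 18 cells. Against all other nuclei Chd4 and Mta3 were past the fold upwards in both, and Gatad2a was not.

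Mta3 had its highest level in microglia-like cells. There it reached 90.1 CPM in control and 102 in Ikzf1/4 nuclei, against 39.5 and 40.7 in the glial reference and 24.5 and 20.5 in rod-like cells. The microglia ratios were 2.28 (1.75 to 2.97) and 2.51 (1.52 to 4.05), but the second rests on fewer than 100 fragments and was left out of the count. Against all other nuclei the ratios were 2.19 (1.75 to 2.71) and 2.59 (1.67 to 3.87). Among the other scaffold genes Mta2 was highest in rod-like cells of both libraries, and Mta1 in microglia-like cells of the control (60.6) and bipolar-like cells of the Ikzf1/4 library (84.5). Each of those highest Mta1 and Mta2 intervals overlaps that of at least 1 other named class of its library, and the Mta3 intervals in microglia-like cells lie above those of every other named class.

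**Figure D5:**
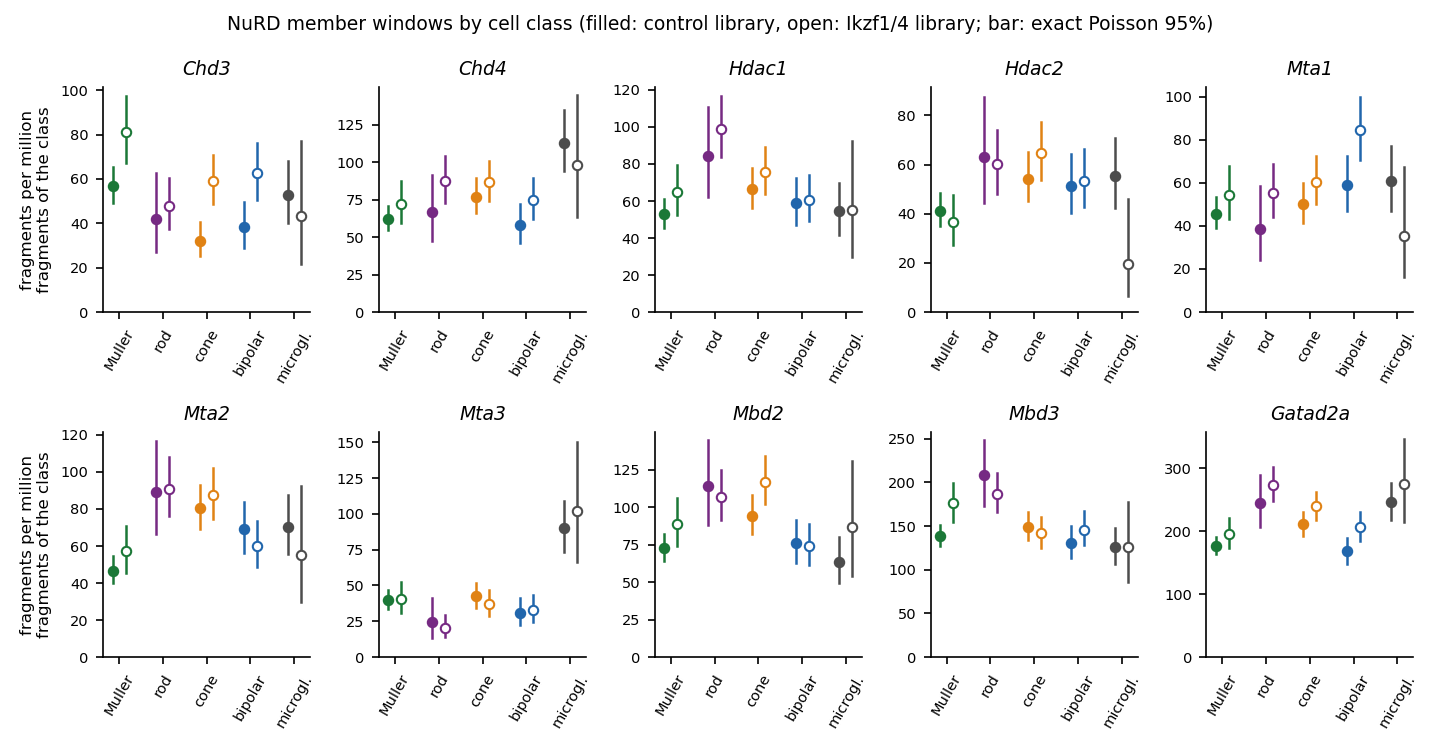
CPM over each member window by cell class in each of the libraries, with exact 95% Poisson intervals. Mta3 stands highest in microglia-like cells (90.1 and 102), and Chd3 is lower in cone-like cells (32.1 and 58.9) than in clusters 0, 6 and 7 (56.8 and 81.3), drawn as Muller glia.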

How the data were processed

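Fibroblast RNA values come from the authors' deposited DESeq2 table: a mean normalised count (signal), a log2 fold change, its standard error and Wald statistic (scores), a p-value and an adjusted p-value. No source used here states shrinkage. The median standard error was 0.0494 at means under 2 but 0.172 at means of 100 to 200, as with shrunken fold changes. The sizes given here, above all at low means, may therefore be understated. Its intervals are 1.96 standard errors to both sides. The deposited salmon estimated counts over 117135 transcripts gave depth only, because no file used here pairs those transcripts with genes. The retinal files hold unique fragments with read pair counts, made with cellranger-arc 2.0.1 on mm10 per the file headers. Fragments were counted over windows and scaled as CPM. Their run names carry 48 h. Intervals are exact Poisson or conditional binomial at 95% and cover counting error only. Nuclei needed 3000 fragments, a gene-end enrichment of 4 and a total below the 99th percentile, the only step against doublets. They were clustered on 5000 bp bins with 28 components, 15 neighbours and Leiden resolution 0.8 into 20 clusters (Python 3.11.15, scikit-learn 1.9.0, leidenalg 0.10.2). Class limits were set after seeing the data. Fibroblast chromatin peaks were not used here. Code was tested on simulated data. All 10 members were named; from each other list, up to 4 genes per direction with the smallest adjusted p, 1 of which is not reported here. Members and lists were chosen with earlier results of these data known.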

Additional observations from a re-analysis of the deposited data

How the results depend on the processing

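The count of 4 called members became 3 when p was adjusted over all genes with a raw p (Gatad2a at 0.051). Of the 16757 genes, 5133 were called by the deposited adjusted p and 4759 under that adjustment. The 44 calls in the other lists became 38 under it. The member count was 3 under Bonferroni adjustment (Gatad2a at 1) and stayed 4 among genes with a mean of at least 100. The shares of all genes under Bonferroni adjustment and among genes of that mean were not counted. The member count was 0 when an absolute log2 fold change of 0.5 was also required, which 10.2% of all genes passed. Windows past the fold numbered 0 of 10 as reported and with gene-window or autosomal scaling. They numbered 2 in cells only (Chd3 1.27, Mta1 1.28; 16.2% of all windows higher, 16.0% lower), 2 in cells of at least 10000 fragments (Chd3, and Mbd2 at 1.29; 19.9% and 13.4%) and 6 over 500 bp around both gene ends (36.5% and 7.19%; median 1.17). They numbered 1 with equal weight for each class (Chd3 1.32; 13.7% and 12.2%) and 2 without the microglia-like class, chosen after seeing the data (Chd3 1.48, Mta1 1.32; 12.8% and 10.4%); the cause was not tested. Under equal weight Hdac2, Mta2 and Mta3 were at 0.885, 0.984 and 1.03, and without that class at 1.02, 1.03 and 0.955. The 13 class differences became 12 in cells of at least 5000 fragments, where Chd3 in rod-like cells was lost, and 11 with gene-window scaling. Against all other nuclei, an alternative chosen after seeing the data, they became 10, and Chd3 was in none. The shares of all windows were not counted for these class alternatives. The 5 starts stayed 5 over 500 bp on both sides, where the share of all starts was not counted. No paired analysis was possible because the authors' table holds no values per library and no file used here pairs transcripts with genes; count models and leaving out replicates were not run for that reason. Depth limits the class values: the microglia-like cluster held 18 nuclei in the Ikzf1/4 library.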
